A study of Mus musculus with 12 samples.

Results

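Calb1, Pcp2, Pcp4, Car8, Ppp1r17, Gng13, Plcb4 and Rora are genes whose transcripts mark Purkinje cells, the output neurons of the cerebellar cortex. They were followed in the cerebellum of mutant and wild-type mice on exon arrays, which carry several probe sets per gene. The members are the rows that the platform annotation assigns to exactly 1 gene symbol, one of these 8. They comprise 8 of 23332 rows of the gene-level table, 1 per gene and each a transcript cluster (a summary of the probe sets of a gene), and 104 of 229581 probe sets of the exon-level table. The 5 probe sets of Ppp1r17 are listed under its older symbol, Gsbs. A gene-level row and 9 probe sets listed for both Igsf5 and Pcp4 were left out by the same rule.

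The samples were cerebellar total RNA of 3 NMF291–/– and 3 wild-type (WT) mice, all female and 30 days old (P30), described as biological replicates. NMF291–/– mice carry a deletion of 5 nucleotides in Rnu2-8, a gene for U2 snRNA, the RNA of the spliceosome that pairs with the branch site of introns. The labels give no strain and no number of litters, and the wild-type mice are described as matched for age and gender. Each array was deposited at both levels, so the levels are views of the same 6 RNA samples and were tested apart. Array medians at gene level were 8.05 to 8.09 (log2) on the mutant arrays and 8.00 to 8.03 on the wild-type arrays, and Rnu2-8, which has no row under that name, was not analysed here. With 3 arrays a genotype, precision is limited throughout.

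A Purkinje cell receives glutamate at its parallel fibre and climbing fibre synapses, and the receptor mGluR1 passes part of that signal through Gq proteins and a phospholipase C beta to the release of calcium from the endoplasmic reticulum. Calcium-binding and calmodulin-binding proteins then shape the calcium signal, and the cell's firing inhibits the deep cerebellar nuclei. Loss of Rora in the staggerer mouse, and of Car8 in the waddles mouse, is known to cause ataxia. In RNA of a whole cerebellum, fewer Purkinje cells and less RNA of a gene per cell cannot be told apart.

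All 8 genes had a slightly lower mean on the mutant arrays, and none of these differences passed the test. The differences ran from -0.27 for Gng13 to -0.019 for Pcp4 (log2, mutant minus wild type), with a median of -0.087, which is 0.827 to 0.987 of the wild-type level. After median centring of the arrays they ran from -0.32 for Gng13 to -0.069 for Pcp4, with a median of -0.14. That centring also moved the median over all rows, to -0.032. With it 0 of the 8 passed (limma), against 1129 of all 23332 rows. An unadjusted p under 0.05 was reached by 5 of the 8, against 5552 of all rows in either direction. limma's moderated test with Benjamini-Hochberg adjustment over all 23332 rows called 0 of the 8 at an adjusted p under 0.05, against 5.75% of all rows called. At an unadjusted p under 0.05, 3 of the 8 were lower (Gng13, Plcb4 and Car8), against 7.83% of all rows lower at that p. In 5 of the 8 every mutant array lay below every wild-type array, against 11.1% of all rows. For comparison, without centring 44.8% of all rows had a negative difference and the median over all rows was 0.018. A p that misses the threshold does not show that the levels were equal, and the intervals given with each gene show what sizes the 6 arrays leave possible.

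**Figure D1:**
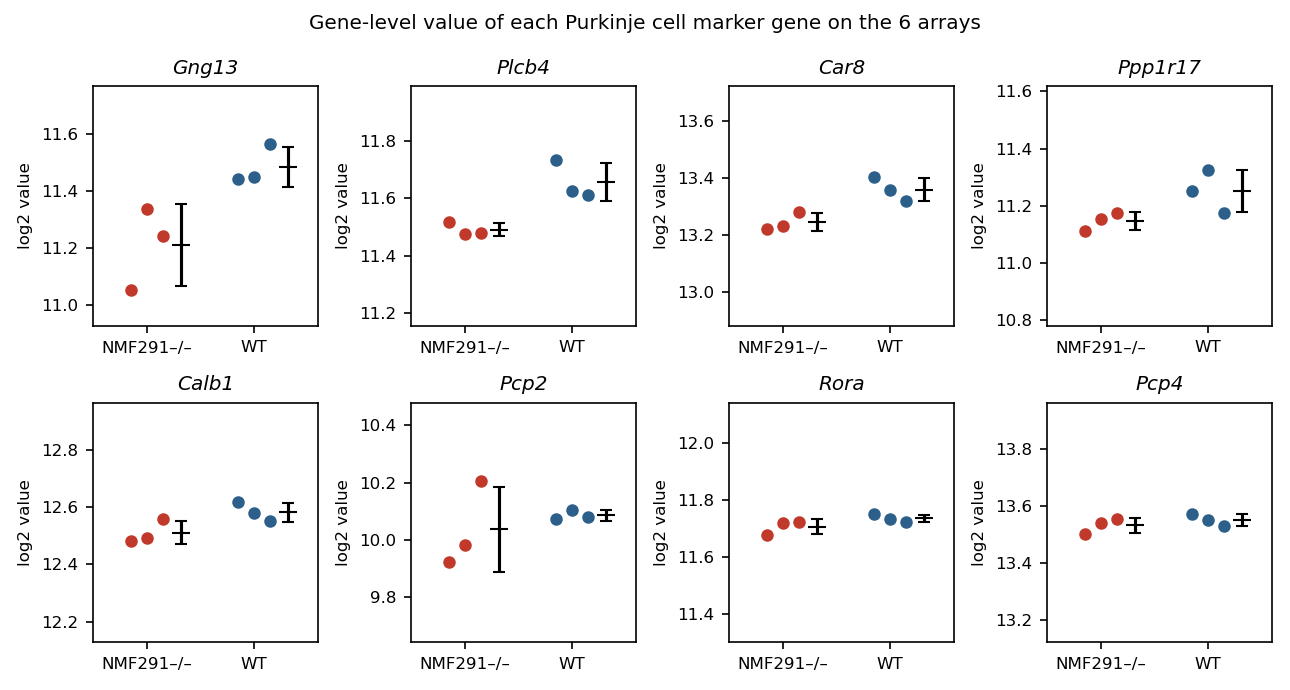
Gene-level log2 value (vertical axes) of each of the 8 genes on the 3 NMF291–/– arrays (red) and the 3 WT arrays (blue), with mean and SD beside them (n = 3); every panel spans the same height. Gng13, Plcb4 and Car8 show separate groups, with mutant values of 11.05 to 11.34 against wild-type values of 11.44 to 11.57 for Gng13, while Pcp4 and Pcp2 overlap.

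The largest differences were those of Gng13 and Plcb4, genes of G protein and phospholipase signalling. Gng13, the gamma subunit of a heterotrimeric G protein that is also known from taste cells, had values of 11.05, 11.34 and 11.24 on the mutant arrays and of 11.44, 11.45 and 11.57 on the wild-type arrays. The groups did not overlap, and the lowest mutant array was replicate 1. The means were 11.21 ± 0.14 in mutants and 11.49 ± 0.07 in wild type (SD, n = 3), a difference of -0.27 ± 0.08 (SE) with a 95% interval of -0.48 to -0.07 and an adjusted p of 0.124 by limma. Gng13 was thus at 0.827 of its wild-type level.

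Plcb4, the phospholipase C beta that acts downstream of mGluR1 in many Purkinje cells, stood at 11.52, 11.48 and 11.48 on the mutant arrays, against 11.73, 11.62 and 11.61 on the wild-type arrays. The mutant arrays lay close together and all below the wild-type arrays, of which replicate 1 was the highest. The difference was -0.17 ± 0.05 (SE; 95% interval -0.29 to -0.04; adjusted p = 0.118, limma), the smallest adjusted p among the 8. When the adjustment was made over the 11666 rows at or above the table median, Gng13 (adjusted p = 0.0427, limma) and Plcb4 (adjusted p = 0.0435, limma) both passed. That test called 22.2% of its rows, and 2 of the 8 is near that share.

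Pcp2, a GoLoco-domain protein that modulates Gi/o proteins and is among the most specific Purkinje transcripts, had mutant values of 9.92, 9.98 and 10.20 and wild-type values of 10.07, 10.10 and 10.08. The mutant arrays lay on both sides of the narrow wild-type range. Its difference was -0.049 ± 0.080 (SE; 95% interval -0.25 to 0.15; adjusted p = 0.777, limma). The sign of the Pcp2 difference turned without mutant replicate 1, at 0.0090, and when the median of its probe sets stood for the gene, at 0.015.

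Of the calcium and calmodulin genes, Car8 differed most. It encodes a carbonic anhydrase-related protein without enzyme activity that binds the IP3 receptor, and its values were 13.22, 13.23 and 13.28 on the mutant arrays and 13.40, 13.36 and 13.32 on the wild-type arrays. The groups were separate, by 0.039 between the nearest arrays. The difference was -0.12 ± 0.04 (SE; 95% interval -0.22 to -0.0054; adjusted p = 0.199, limma).

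Calb1, the calcium buffer calbindin that is widely used to stain Purkinje cells, had mutant values of 12.48, 12.49 and 12.56 and wild-type values of 12.62, 12.58 and 12.55. Mutant replicate 3 lay just above wild-type replicate 3, so the groups overlapped. The difference was -0.071 ± 0.045 (SE; 95% interval -0.18 to 0.04; adjusted p = 0.418, limma).

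Pcp4, a small protein with an IQ motif that binds calmodulin, had the smallest difference, at 13.50, 13.54 and 13.55 in mutants and 13.57, 13.55 and 13.53 in wild type. The groups lay on top of each other, and the 95% interval of the difference was -0.12 to 0.08 (adjusted p = 0.831, limma). After quantile normalization the sign of the Pcp4 difference turned, to 0.013. The row's mean was above that of 99.9% of rows, in a table whose highest value was 14.13, and whether signals so near the top of the scale still follow RNA amounts was not tested.

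Ppp1r17, known as G-substrate, is a target of cGMP-dependent protein kinase and inhibits protein phosphatases. Its values were 11.11, 11.15 and 11.18 on the mutant arrays and 11.25, 11.32 and 11.18 on the wild-type arrays. The groups were separate only by 7e-05, so the lowest wild-type array and the highest mutant array were in effect equal. The difference was -0.10 ± 0.05 (SE; 95% interval -0.23 to 0.03; adjusted p = 0.322, limma).

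Rora, the orphan nuclear receptor that Purkinje cells need to mature and survive, had mutant values of 11.68, 11.72 and 11.72 and wild-type values of 11.75, 11.73 and 11.72. Here too the groups were separate by a very small gap, 3.8e-04. The difference was -0.029 ± 0.040 (SE; 95% interval -0.13 to 0.07; adjusted p = 0.722, limma).

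**Figure D2:**
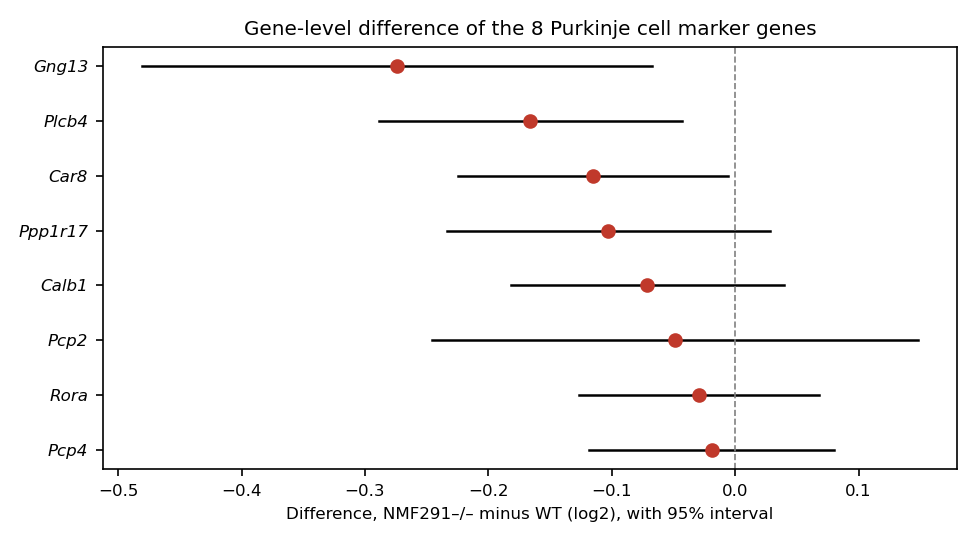
Difference of each gene at gene level, NMF291–/– minus WT (log2, horizontal axis), with its 95% interval from limma (3 arrays per genotype). All 8 points lie left of 0, and the intervals of Gng13, Plcb4 and Car8 alone end below 0, at -0.07, -0.04 and -0.0054.

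The arrays did not contribute equally to these values. Mutant replicate 1 was the lowest of the 6 arrays for 7 of the 8 genes, while it was the lowest for 17.2% of all rows. Plcb4 was the exception, with its lowest value in mutant replicate 2. Mutant replicate 3 was the highest mutant array for 6 of the 8, against 37.8% of all rows. Averaged over the 8 genes, the mutant arrays stood at -0.15, -0.097 and -0.061 relative to the wild-type mean of each gene, and the wild-type arrays at 0.017, 0.0022 and -0.019. The median difference of the 8 was -0.12 without mutant replicate 3 and -0.070 without wild-type replicate 2, with the other left-out arrays between these.

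Work in mice lists Pcp2 and Pcp4 among the genes that Rora activates. Their promoter windows are shown for that reason, with those of Gng13 and Plcb4, the genes with the largest differences. The windows are from RefSeq (GRCm38.p6), which holds 10 windows for 5 of the 8 genes; each runs from 250 bases before a transcription start to 50 after it, 5′ to 3′ on the strand of the gene. Capitals mark AGGTCA, the half-site that Rora is known to bind, or its reverse complement TGACCT.
Pcp2 chr8:3625498-3625797 (- strand): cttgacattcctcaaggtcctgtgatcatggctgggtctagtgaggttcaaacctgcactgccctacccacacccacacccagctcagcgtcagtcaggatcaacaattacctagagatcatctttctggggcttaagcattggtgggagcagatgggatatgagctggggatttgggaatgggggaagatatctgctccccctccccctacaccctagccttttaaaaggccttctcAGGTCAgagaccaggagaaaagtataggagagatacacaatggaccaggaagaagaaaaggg
Pcp4 chr16:96467356-96467655 (+ strand): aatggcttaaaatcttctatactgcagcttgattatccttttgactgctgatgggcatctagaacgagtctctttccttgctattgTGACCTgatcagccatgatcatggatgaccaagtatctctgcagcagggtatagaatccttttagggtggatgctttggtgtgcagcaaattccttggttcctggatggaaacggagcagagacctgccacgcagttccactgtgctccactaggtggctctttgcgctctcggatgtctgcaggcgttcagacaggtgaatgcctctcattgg
Gng13 chr17:25716922-25717221 (+ strand): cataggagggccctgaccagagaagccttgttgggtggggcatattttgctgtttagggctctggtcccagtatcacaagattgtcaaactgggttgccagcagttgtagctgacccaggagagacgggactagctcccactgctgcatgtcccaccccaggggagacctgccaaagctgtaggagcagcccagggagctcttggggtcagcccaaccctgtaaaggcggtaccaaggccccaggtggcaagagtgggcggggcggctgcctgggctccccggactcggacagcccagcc
Plcb4 chr2:135659297-135659596 (+ strand): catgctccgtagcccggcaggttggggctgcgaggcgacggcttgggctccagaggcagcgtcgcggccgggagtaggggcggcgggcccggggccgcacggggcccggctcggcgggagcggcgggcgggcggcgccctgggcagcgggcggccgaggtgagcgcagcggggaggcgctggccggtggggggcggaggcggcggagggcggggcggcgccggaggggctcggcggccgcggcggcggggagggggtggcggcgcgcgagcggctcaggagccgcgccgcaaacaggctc
In the Pcp2 window the half-site lay at position -12 from the start, on the strand of the gene, and in the Pcp4 window at position -164, on the other strand. A search of both strands found these letters in 4 of the 10 windows, all of Pcp2 or Pcp4, and in 16.3% of the 32851 windows of all genes. Neighbouring Pcp2 windows overlap and share a match, and a match is a description of the letters and not of a bound site. The differences of the genes with a match were -0.049 for Pcp2 and -0.019 for Pcp4, and that of Rora itself was -0.029. After median centring of the arrays they were -0.098 for Pcp2, -0.069 for Pcp4 and -0.079 for Rora, and none of the 3 passed with or without centring. Of 5 genes listed as known mouse targets of Rora 4 were measured, none passed, and the 2 that are not members were the glutamate transporter gene Slc1a6 at -0.099 and Shh, which drives proliferation of granule cell precursors, at -0.065 (adjusted p = 0.367 and 0.494, limma).

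The exon-level probe sets asked whether the parts of each transcript moved together, since the mutation lies in a splicing component. Of the 104 probe sets, 92 (88.5%) had a negative difference, against 46.7% of all probe sets, and the median was -0.085. limma called 0 of the 104 after adjustment over 229581 probe sets, against 1.00% of all. At an unadjusted p under 0.05, 14 were lower and 0 higher, against 6.80% of all probe sets lower at that p. Of these 14, 11 were of Plcb4, 2 of Gng13 and 1 of Car8. In either direction, 13.5% of the 104 and 16.9% of all probe sets reached that p. In 34 probe sets (32.7%) every mutant array lay below every wild-type array, against 10.1% of all, and in 2, both of Rora, every mutant array lay above, against 14.0% of all. Probe sets of a gene share its RNA and are not replicates, and their positions in the transcripts were not analysed here.

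**Figure D3:**
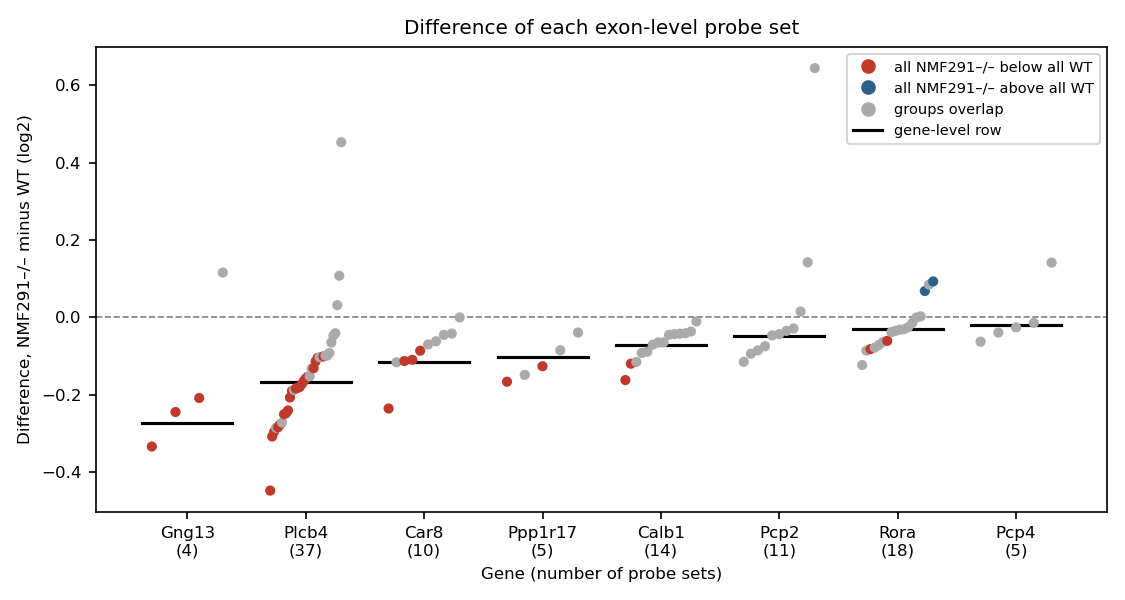
Difference of each of the 104 probe sets, NMF291–/– minus WT (log2, vertical axis), by gene, with the number of probe sets in brackets; the black line is the gene-level row, red points have all mutant arrays below all wild-type arrays and blue points the reverse. Most points lie below 0 in every gene, Plcb4 holds 21 of the 34 red points, and the highest points are single probe sets of Pcp2 at 0.64 and Plcb4 at 0.45.

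Plcb4 had 37 probe sets, of which 34 were lower on average. In 21 (56.8%) every mutant array lay below every wild-type array, against 10.1% of all probe sets. The most negative difference was that of probe set 5149920, at 9.51, 9.37 and 9.68 on the mutant arrays and 9.86, 10.07 and 9.97 on the wild-type arrays. All mutant arrays lay below the wild-type arrays, and the difference was -0.45 ± 0.11 (SE; adjusted p = 0.114, limma). The next was 4502306 at -0.31 ± 0.11 (adjusted p = 0.228, limma). With only probe sets at or above the table median adjusted together, 4 of the 37 Plcb4 probe sets passed and none of another member. That test called 11.7% of its probe sets, and 4 of 37 is near that share. With trend and robust settings of the moderated test, 8 of the 104 member probe sets passed, all lower (6 of Plcb4, 1 of Car8 and 1 of Gng13). That test called 6.78% of all probe sets, and 8 of 104 is near that share.

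A few Plcb4 probe sets behaved differently from the rest. In 4 of them the wild-type range was over 0.5, from 0.76 to 1.55, with wild-type replicate 1 the highest wild-type array in each. In the other 33 the range was at most 0.42, 32 had a negative difference, and the median difference was -0.17. The widest was 5586888, with 8.18, 8.11 and 7.85 on the mutant arrays and 8.50, 6.95 and 7.34 on the wild-type arrays. Its mutant values lay inside the wild-type range, and its mean difference of 0.45 ± 0.37 (SE; adjusted p = 0.601, limma) was the highest among the probe sets of this gene. The next, 5523322, was at 0.11 ± 0.26 (SE; adjusted p = 0.878, limma).

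**Figure D4:**
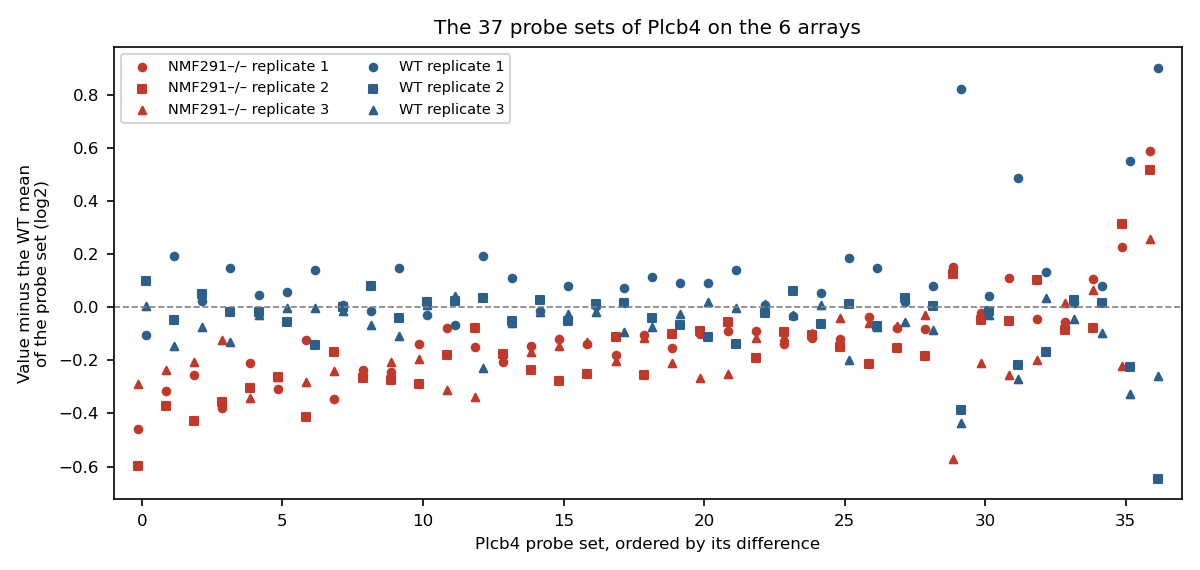
Value of each of the 37 Plcb4 probe sets on each array minus the probe set's wild-type mean (log2, vertical axis), ordered by difference along the horizontal axis; red is NMF291–/–, blue is WT, and the symbol gives the replicate. Mutant points lie below the wild-type points over most of the row, and wild-type replicate 1 stands 0.49 to 0.90 above the wild-type mean in 4 probe sets towards the right.

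The splicing index, which is a probe set's value minus the median of its gene's probe sets on the same array, was tested for 102 of the 104 probe sets. The other 2 lay below the 25th percentile of the table. limma called 0 of the 102, against 0.00839% of 107238 probe sets tested, and 2 of the 102 had an unadjusted p under 0.05, against 11.1% of those tested. These 2 were the Car8 probe set 4326793, whose index difference was -0.16 ± 0.06 (SE; adjusted p = 0.418, limma), and the Gng13 probe set 5001128, whose index difference was 0.39 ± 0.12 (adjusted p = 0.358, limma). Gng13 thus had 3 probe sets at -0.33, -0.25 and -0.21, each with separate groups, and 5001128 at 0.12 with values of 12.08, 12.14 and 11.87 in mutants and 12.10, 11.76 and 11.89 in wild type, which overlap.

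limma's diffSplice, which pools the spread over the probe sets of a gene, called 1 of the 102, against 1.26% of those tested. It was the Plcb4 probe set 5586888, whose mutant minus wild-type difference exceeded that of the other Plcb4 probe sets by 0.62 (adjusted p = 0.00881, limma). Leaving out mutant replicate 1 or 2 ended that call (adjusted p = 0.175 and 0.133), as did leaving out wild-type replicate 2 or 3 (adjusted p = 0.700 and 0.155). It was kept without wild-type replicate 1, where the difference was 1.01, or mutant replicate 3.

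In the other genes the probe sets differed little. All 14 probe sets of Calb1 were between -0.16 and -0.011, and 2 had separate groups, 4991382 at -0.16 and 5554698 at -0.12. Over all probe sets, 10.1% had every mutant array below every wild-type array, and 2 of 14 is near that share. All 10 of Car8 were negative, 4 with separate groups, with 4326793 the lowest at -0.24 ± 0.08 (SE; adjusted p = 0.194, limma); its values were 11.37, 11.41 and 11.45 in mutants and 11.67, 11.59 and 11.68 in wild type. The mutant arrays of that probe set lay well clear of the wild-type arrays, while the Car8 probe set 5204086 was at -2.9e-04 with overlapping groups. All 5 of Ppp1r17 were negative, 2 with separate groups, and the lowest was 5157474 at -0.17.

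Rora, Pcp2 and Pcp4 had probe sets on both sides of 0. Of 18 Rora probe sets 14 were negative, and their range was -0.12 for 4679000 to 0.093 for 5204721. In 5204721 the mutant values of 12.01, 12.02 and 12.12 all lay above the wild-type values of 11.94, 11.99 and 11.94 (adjusted p = 0.606, limma). Of 11 Pcp2 probe sets 8 were negative, with 5464791 the lowest at -0.12. The Pcp2 probe set 5225547 was at 0.64 ± 0.27 (SE; adjusted p = 0.302, limma), from mutant values of 5.61, 6.06 and 6.41 and wild-type values of 4.93, 5.82 and 5.40. It lay at the 11.9th percentile of the table, so that this value is of a dim probe set whose groups overlap. Pcp4 had 4 of 5 probe sets negative, from -0.063 for 4538823 to 0.14 for 5301744.

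Other genes that Purkinje cells are known for also had negative differences. Of 24 such genes 13 had a row with 1 symbol, and all 13 had a negative difference, with a median of -0.064. In 5 every mutant array lay below every wild-type array, against 11.1% of all rows, and none of the 13 passed. Some lists of other cell types leaned the same way, with negative differences in 8 of 8 brainstem and deep nuclear markers and 10 of 10 choroid plexus markers. So did 12 of 13 interneuron markers and 10 of 13 granule neuron markers. Other lists did not, with negative differences in 1 of 11 oligodendrocyte, 4 of 11 Bergmann glia and astrocyte and 0 of 15 microglia markers. The choroid plexus list was low mainly in mutant replicate 3, with a mean of -1.02 relative to wild type. It was at -0.059 and -0.022 in the other mutants and at -0.095 to 0.13 on the wild-type arrays. Among the 13 other Purkinje cell genes, the transcription factors Ebf1, at -0.20 ± 0.05 (SE, adjusted p = 0.0788, limma), and Lhx1, at -0.18, had the smallest p. The IP3 kinase Itpka at -0.12 and the transcription factor Lhx5 at -0.12 followed. Ebf1 had 10.19, 10.31 and 10.20 on the mutant arrays and 10.44, 10.43 and 10.43 on the wild-type arrays, which were separate. Ebf1 passed after median centring of the arrays (adjusted p = 0.0400, limma) but not after quantile normalization (adjusted p = 0.0542).

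Partners of the 8 genes were read by pathway. In the mGluR1 and calcium release pathway 0 of 12 measured genes passed, 9 were negative and 3 positive. The Gq-family subunit Gna11 was at 0.24 ± 0.05 and Plcb3, the phospholipase of the Purkinje cells that carry zebrin, at -0.18 ± 0.04 (SE; adjusted p = 0.0587 and 0.0611, limma); Plcb3 passed at -0.23 after quantile normalization (adjusted p = 0.0401) and at -0.23 after median centring (adjusted p = 0.0405). Among 5 zebrin-related genes 1, the calcium sensor Ncs1, fell by 0.34 (adjusted p = 0.0251, limma), while Slc1a6 was at -0.099 and Aldoc, the gene of zebrin II itself, at -0.048.

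Of 14 genes for Gi/o, beta and gamma subunits and their regulators, Gng7 fell by 0.48 (adjusted p = 0.0181, limma) and Gnb2 rose by 0.28 (adjusted p = 0.0406, limma), a rise that was lost after median centring (adjusted p = 0.0746). Of 6 calmodulin-related genes measured all were negative and 1 fell, the calmodulin-dependent kinase Camk4, by 0.37 (adjusted p = 0.0203, limma); Pcp4l1, the paralog of Pcp4, was at -0.17 (adjusted p = 0.147). Of 8 other calcium-binding protein genes 2 fell, Ncald by 0.64 (adjusted p = 0.0133, limma) and Ncs1. In the list of cGMP signalling and phosphatase genes around Ppp1r17, 1 of 7 rose, the phosphatase catalytic subunit Ppp1ca by 0.28 (adjusted p = 0.0340, limma), which did not pass after median centring (adjusted p = 0.0529). Over all 14847 genes with 1 symbol, 340 fell (2.29%) and 625 rose (4.21%), with a median difference of 0.0049.

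Some markers of other cell types in the same RNA held larger differences. Of 15 microglia markers 11 rose (10 after either other scaling), with a median of 0.95, and their mean relative to wild type was 0.72, 1.29 and 0.88 on the mutant arrays, against -0.043 to 0.031 on the wild-type arrays; mutant replicate 1, the lowest array for most Purkinje genes, was also the lowest mutant array here. Of 13 granule neuron markers 4 fell and 1, Grin2c, rose by 0.33, a rise lost after either other scaling. The falls were Cadps2 by 0.96, Gabra6 by 0.46, Kcnd2 by 0.46 and Reln by 0.40. The other 8 did not pass, and the median of the 13 was -0.057, against -0.087 for the 8 Purkinje cell marker genes. Of 11 Bergmann glia and astrocyte markers Gfap alone passed, rising by 1.48, and none of 13 interneuron, 11 oligodendrocyte or 8 brainstem and deep nuclear markers passed (medians -0.063, 0.078 and -0.11). The choroid plexus list had a mean of -1.02 in mutant replicate 3 and of -0.059 and -0.022 in the other mutants, so mutant replicate 3 stood apart for that list. The part of these shifts in the Purkinje values was not tested.

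**Figure D5:**
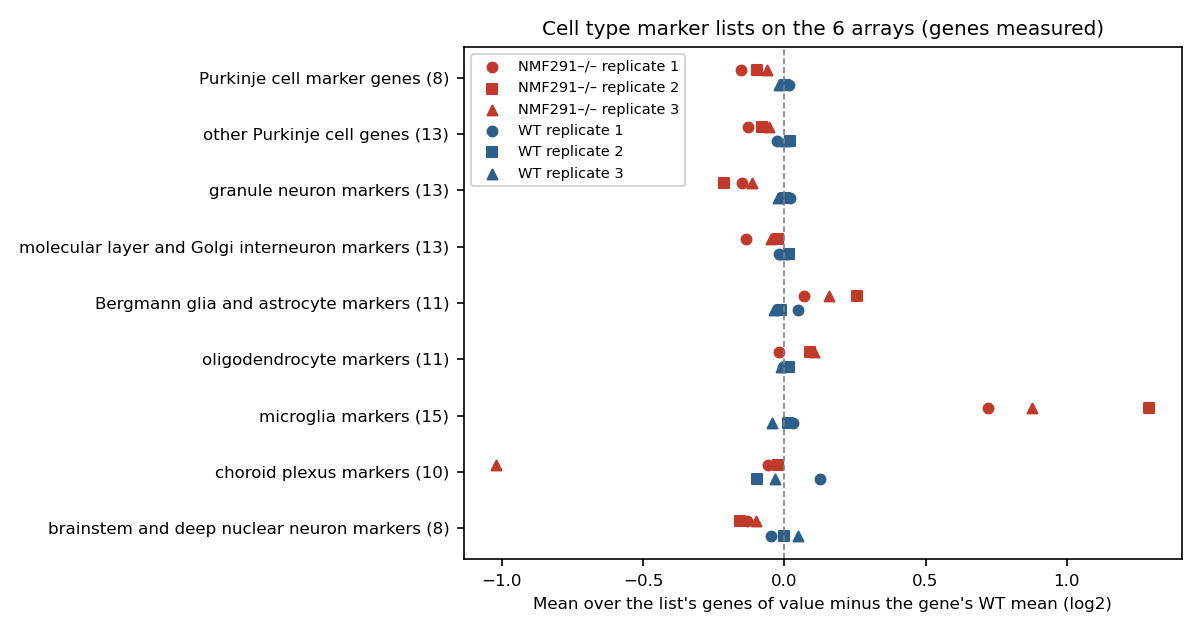
Mean over each marker list of a gene's value minus its wild-type mean (log2, horizontal axis), per array, with the number of genes measured in brackets; red is NMF291–/–, blue is WT, and the symbol gives the replicate. The 8 Purkinje cell marker genes sit at -0.15 to -0.061 on the mutant arrays, while microglia markers sit at 0.72 to 1.29.

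The genes whose gene-level pattern was most like the mean of the 8 over the 6 arrays were Socs7, Msmo1, Unc80, Mkks and Adcy9. Pearson's r was 0.995 to 0.996, among 8201 genes compared, of which 413 had an r above 0.9; the arrays share their genotype contrast and 6 points give high values easily. Their own differences ran from -0.12 for Mkks to -0.20 for Unc80, and none passed (adjusted p = 0.0916 to 0.192, limma).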

How the data were processed

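Members and gene lists were chosen with earlier results of these data known. Deposited values were used as given: the authors' values are log2 per array, a scale taken from their range (2.32 to 14.13 at gene level), at gene level and exon level. Per the labels' protocols, TRIzol-extracted RNA was labelled with an Affymetrix WT Terminal Labeling kit. The sources used here do not give the background correction, normalization or summary software; the submitters' processing notes name the build mm8. Symbols came from the platform annotation, updated through RefSeq (GRCm38.p6).

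Differences (mutant minus wild type) were tested with limma 3.58.1 in R 4.3.3 (lmFit, eBayes, two-sided, no covariate, no filter), adjusted over the whole table. These p-values measure the spread between these mice. Those of diffSplice also pool the probe sets of a gene, which are not replicates. The splicing index was tested in genes with at least 3 probe sets, a gene median at or above the 50th percentile and a probe set at or above the 25th. Arrays give no counts, so there is no depth. Genes and probe sets were named by a fixed rule: all members; per member the 2 largest differences each way and the smallest p of the splicing index; up to 4 genes of each list by p; and the 5 genes most like the members' mean. Scripts were tested on simulated arrays. Deviations of same-numbered mutant and wild-type arrays had r = -0.011, -0.038 and 0.032 over all rows, against -0.086 to 0.097 for differently numbered arrays. These values cannot decide whether the numbers pair mice, and the main test used no pairing. Other settings tried were a block for replicate number, filtering of low values, robust and trended moderation, centring on medians, quantile normalization, an adjusted p under 0.1, transcript clusters only, probe set medians, other splicing levels, diffSplice and leaving out each array. Figures used matplotlib 3.10.9 in Python 3.11.15.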

Additional observations from a re-analysis of the deposited data

How the results depend on the processing

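The count of 0 members called at gene level held under 12 of 13 alternatives; with rows at or above the table median 2 passed, Gng13 and Plcb4. Over all rows the count of 1342 was 0 with the replicate number as a block (4787 at an unadjusted p under 0.05, limma), 2586 among rows at or above the median, 2149 with trend and robust settings, 2788 at an adjusted p under 0.1 and 76 to 496 with each array left out. Of the 1342, 920 were higher, against 680 of 1275 after quantile normalization and 529 of 1129 after median centring. At exon level the 2307 probe sets called were 0 with the block (34378 at an unadjusted p under 0.05, limma), 13382 among probe sets at or above the median, 15561 with trend and robust settings, 8188 at an adjusted p under 0.1, and 0 to 0 with each array left out, beside 31235 to 39930 at an unadjusted p under 0.05. Member probe sets called were 4 in the filtered test and 8 with trend and robust settings, against 0 in the other 10. With the replicate block 0 rows of either table passed, so no member could have been called at either level. Likewise no member probe set could have been called with an array left out, since 0 of all probe sets passed. By splicing index 0 member probe sets passed under 14 of 15 alternatives and 1 by diffSplice. In its main setting the index test called 9 of 107238 probe sets, so a count of 0 among 102 member probe sets says little. The members' median difference of -0.087 was -0.14 after median centring and -0.12 to -0.070 with each array left out. Values of 2 genes turned sign. Pcp4 was at 0.013 after quantile normalization. Pcp2 was at 0.0090 without mutant replicate 1 (-0.13 to 0.0090 with each array left out) and at 0.015 as its probe set median. On every array that median was the value of the same probe set, while 8 of the 11 Pcp2 probe sets had a negative difference. The cause of the other turns was not tested.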
